A study of Mus musculus with 11 samples.

Results

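The genes described here encode proteins of the mitochondrial ribosome, of the machinery that imports proteins into mitochondria, and of the carriers that move small molecules across the inner mitochondrial membrane. All genes with 1 annotated symbol starting with Mrpl, Mrps, Timm, Tomm or Slc25a were taken, which gave 78 of the 7114 genes measured. Of these, 33 were Mrpl, 12 Mrps, 11 Timm, 7 Tomm and 15 Slc25a genes, on 91 probes. A value on all 11 arrays was present for 77 of the 78. The exception was Mrps18a, which had values on 3 arrays, 0.96 on the array labelled Lung, -0.52 on VA_MEF and 1.24 on Melan A.

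The study hybridised RNA from 11 mouse samples, 1 per array, against 1 mouse embryo reference RNA, to compare RAS isoforms in melanocytes, the pigment cells of the skin. Arrays labelled as organs were Kidney, Liver, Lung and Heart, arrays labelled as fibroblast lines were VA_MEF and 3T3, and VA_475 had no cell type in its label. Arrays labelled as melanocyte lines were NRAS_MEL, HRAS_MEL, Melan A and D6_MEL. NRAS_MEL carried the code C3 Nras, D6_MEL the code C3, HRAS_MEL another, VA_MEF the code BAKE and VA_475 the code B475. 3T3 is an established fibroblast line, Melan A an established melanocyte line, and MEF was read as mouse embryonic fibroblast and MEL as melanocyte. Genotype, strain, age, clone number, pooling and the vector behind a RAS label were not given in the sources used here. What the arrays share is the reference, so each value is the log2 ratio of own RNA over embryo RNA, and 0 stands for the median probe of the array. The base of the logarithm was taken as 2. The direction was not stated, and own RNA over reference is likely because each of 4 organ marker lists had its farthest array below the 11-array median as deposited, by -4.55 for heart, -8.35 for liver, -4.42 for kidney and -7.31 for lung. The titles run against it, since they name the sample first and the reference second, and with that reading every sign below would turn. Ratios of different genes cannot be ranked as levels, since each is set against its own level in the embryo RNA.

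Several arrays went against their labels, and they are called "the array labelled X" below. The heart list, Nppb and Fabp3, had a median of -0.96 on the array labelled Heart and of 3.77 on the array labelled Melan A. The 4 liver genes had their highest median on the array labelled Lung, at 2.94, and -4.84 on the array labelled Liver. The 3 lung genes had 5.75 on the array labelled Liver and -0.34 on the array labelled Lung. The 5 kidney genes had 4.17 on Kidney, and at most -0.01 on the other arrays. The 6 melanocyte genes had medians of -0.52, -0.90 and -0.41 on NRAS_MEL, HRAS_MEL and D6_MEL and of -1.20 on the array labelled Melan A, below 0.39 on VA_MEF, 0.29 on the array labelled Liver and -0.22 on the array labelled Heart. The list as a whole thus did not set the melanocyte labels apart. Kit and Ednrb, receptors of melanocyte precursors, and Rab27a, which carries melanosomes, were below 0 on NRAS_MEL, HRAS_MEL and D6_MEL and highest on the array labelled Liver. Melanophilin, Mlph, which links melanosomes to a motor protein, stood at 2.94 on the array labelled Heart, 3.06 on VA_MEF, 2.55 on NRAS_MEL, 2.36 on HRAS_MEL, -0.06 on the array labelled Melan A and 3.18 on D6_MEL. Rab38, also on the melanocyte list, stood at 3.40 on VA_MEF and at most at 0.31 on the other arrays. The 10 fibroblast genes had medians from -1.82 on Kidney to -0.16 on 3T3. On VA_MEF, labelled as fibroblast, their median was -1.66, against -1.70 on NRAS_MEL, -0.74 on HRAS_MEL and -1.47 on D6_MEL. VA_MEF is thus counted among the 5 doubted arrays below, though it keeps its short name.

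Mitochondria hold a small genome whose messages are translated by their own ribosome, and the proteins of that ribosome are encoded in the nucleus, the large subunit by Mrpl and the small subunit by Mrps genes. Nearly all other mitochondrial proteins are made in the cytosol and pass the outer membrane through the channel Tomm40 with its receptors, and then the inner membrane through translocases built of Timm proteins. The Slc25a proteins sit in the inner membrane, with a few exceptions in other organelles, and exchange nucleotides, phosphate and metabolites between cytosol and matrix. Heart muscle, kidney tubule and liver are known for dense mitochondria.

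The mitochondrial ribosome genes stood highest on the array labelled Melan A, the array with heart markers. The median over the 33 Mrpl genes was 0.25 on Kidney, -0.23 on the array labelled Liver, 0.25 on the array labelled Lung, -0.15 on the array labelled Heart, 0.09 on VA_MEF, -0.10 on 3T3, -0.01 on VA_475, 0.06 on NRAS_MEL, -0.28 on HRAS_MEL, 0.69 on the array labelled Melan A and -0.26 on D6_MEL. The Mrps median was 0.20 on Kidney, -0.21 on the array labelled Liver, 0.28 on the array labelled Lung, -0.09 on the array labelled Heart, 0.22 on VA_MEF, 0.03 on 3T3, 0.56 on VA_475, 0.17 on NRAS_MEL, -0.19 on HRAS_MEL, 0.81 on the array labelled Melan A and -0.22 on D6_MEL. The Mrps medians of VA_MEF and of the arrays labelled Lung and Melan A include Mrps18a, which had no value on the other arrays. Both subunits shared the same top array, and the Mrps genes, unlike the Mrpl genes, had a second high value on VA_475. The median of all genes lay between -0.09 and -0.03 on every array. Of the 77 members with values throughout, 36 were highest on the array labelled Melan A, which was the highest array for 16.1% of all 7035 such genes. These were 21 of 33 Mrpl, 4 of 11 Mrps, 5 of 11 Timm, 2 of 7 Tomm and 4 of 15 Slc25a genes. At the low end, 18 members were lowest on the array labelled Liver, which was lowest for 6.79% of all genes, and 15 on HRAS_MEL, which was lowest for 7.49%. No member was highest on HRAS_MEL, which was highest for 6.10% of all genes.

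**Figure D1:**
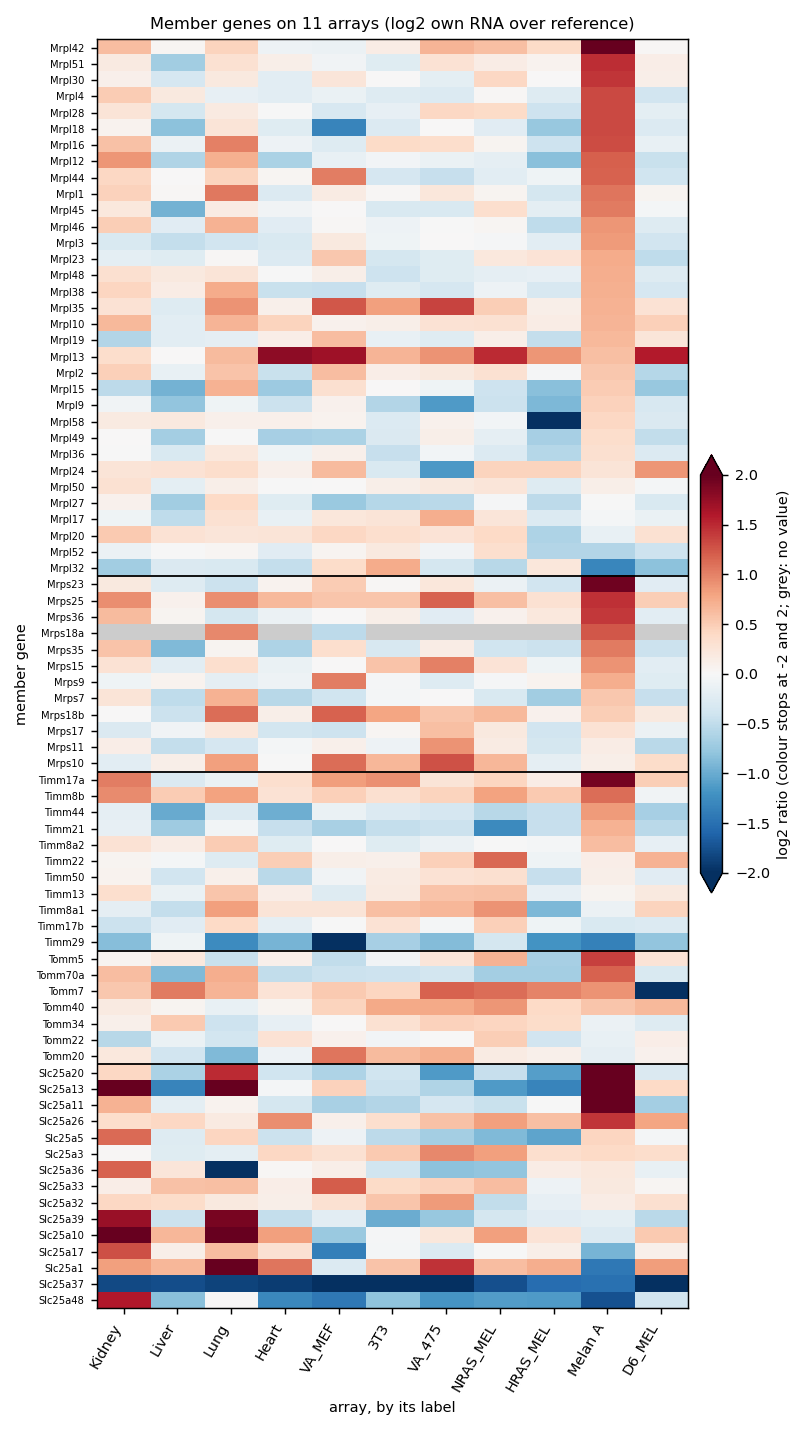
Log2 ratio of own RNA over reference (colour, from -2 in blue to 2 in red, grey for no value) for the 78 genes (rows, by family) on 11 arrays (columns, by label). The column of the array labelled Melan A is red for most Mrpl genes, while Slc25a37 at the bottom is blue on all 11 arrays.

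Oxidative phosphorylation is the work of the respiratory chain complexes and ATP synthase. The ribosomal genes stood above 0 with its subunits on Kidney and the arrays labelled Lung and Melan A, at a smaller amplitude. Both were below 0 on HRAS_MEL, D6_MEL and the arrays labelled Liver and Heart. They parted on other arrays, with an Mrps median of 0.56 against -0.40 on VA_475 and of 0.22 against -0.53 on VA_MEF. The median of the 62 oxidative phosphorylation genes was 0.77 on Kidney, 0.52 on the array labelled Lung, 2.04 on the array labelled Melan A and between -0.57 and -0.10 on the other 8. The 15 tricarboxylic acid (TCA) cycle genes reached 2.23 on the array labelled Melan A and 0.73 on Kidney. On the array labelled Melan A, 21 genes of mitochondrial gene expression had a median of 0.35, 20 genes of other import and folding factors 0.74, and 8 genes of fusion, fission and cristae 1.31. Proteins of the cytosolic ribosome, 73 genes, ran otherwise, with -0.54 on Kidney, -0.56 on the array labelled Lung, 0.45 on VA_475, 0.38 on NRAS_MEL and -0.28 on the array labelled Melan A. Proliferation markers, 11 genes, had medians of -1.77 on Kidney, -1.43 on the array labelled Liver, -1.49 on the array labelled Lung and -1.85 on the array labelled Melan A, and from -0.72 to 0.20 on the other 7. Their part in these medians was not tested, and in bulk RNA fewer cells of a type cannot be told from less RNA per cell.

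**Figure D2:**
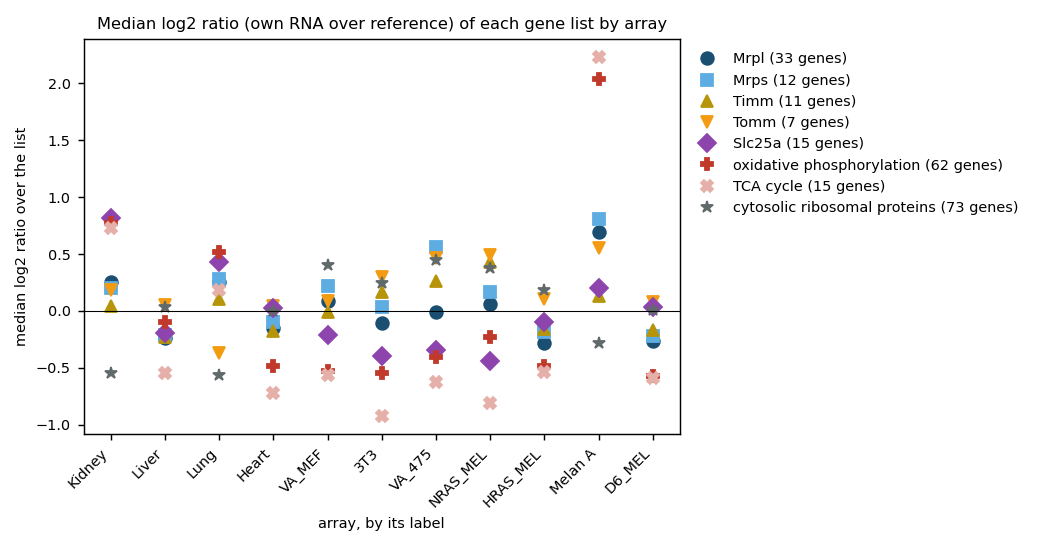
Median log2 ratio of own RNA over reference (y axis) of 8 gene lists (symbols) on each of the 11 arrays (x axis). Oxidative phosphorylation and TCA cycle genes pass 2 on the array labelled Melan A, where the Mrpl and Mrps medians are 0.69 and 0.81.

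As a description over 11 arrays that share 1 reference, the Pearson correlation of each gene with the median of the Mrpl and Mrps genes was computed. Its median was 0.742 over the Mrpl genes, 0.682 over the Mrps genes, 0.607 over the Timm genes, 0.0349 over the Tomm genes and 0.168 over the Slc25a genes. The first 2 families are part of the median they were set against. It was 0.836 over the oxidative phosphorylation genes, -0.414 over the cytosolic ribosomal protein genes and -0.0207 over all genes. Without the array labelled Melan A the values were 0.556 for Mrpl, 0.480 for Mrps, 0.539 for Timm, -0.0117 for Tomm and 0.392 for Slc25a. They were 0.585 for oxidative phosphorylation and -0.00911 over all genes. Part of the pattern shared by the Mrpl, Mrps and oxidative phosphorylation genes thus rests on that array, while the Slc25a value rose. The genes outside the 5 families most like the ribosomal median, over 6958 genes, were Mrm3 (0.964), Dppa3 (0.951), Psmc3 (0.939), Atp5o (0.935), Got1 (0.933), Cox7b (0.930), Ndufaf1 (0.928), Ndufa12 (0.927), Grsf1 (0.925) and Mdn1 (0.923). Mrm3 is a methyltransferase of mitochondrial ribosomal RNA and Grsf1 an RNA-binding protein of the mitochondrial matrix. Atp5o, Cox7b and Ndufa12 are subunits of ATP synthase and of respiratory complexes.

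Among ribosomal members, Mrpl46 (0.937) and Mrpl12 (0.922) followed the median most closely, also without the array labelled Melan A (0.922 and 0.894). Mrpl46 of the large subunit stood at 0.50 on Kidney, -0.23 on the array labelled Liver, 0.70 on the array labelled Lung, -0.22 on the array labelled Heart, 0.02 on VA_MEF, -0.10 on 3T3, -0.01 on VA_475, 0.04 on NRAS_MEL, -0.51 on HRAS_MEL, 0.88 on the array labelled Melan A and -0.26 on D6_MEL. Its neighbour Mrps11 of the small subunit is transcribed the other way from a start 42 bases off, and correlated with the ribosomal median at 0.420. Mrps11 stood at 0.14 on Kidney, -0.48 on the array labelled Liver, -0.34 on the array labelled Lung, -0.05 on the array labelled Heart, 0.11 on VA_MEF, -0.10 on 3T3, 0.90 on VA_475, 0.17 on NRAS_MEL, -0.36 on HRAS_MEL, 0.15 on the array labelled Melan A and -0.54 on D6_MEL. The pair thus differed most where Mrpl46 was high, on the arrays labelled Lung and Melan A, and on VA_475, where Mrps11 had its highest value.

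Promoter windows are shown for the head-to-head pair Mrpl46 and Mrps11, for Mrps23, which had 1 of the highest ribosomal values on the array labelled Melan A, and for the carnitine carrier gene Slc25a20, which moved most with the ribosomal median among carriers (0.837). Without the array labelled Melan A its correlation was 0.624, below 0.690 for Slc25a13 and 0.663 for Slc25a39. Each window, from RefSeq on build GRCm38.p6, runs from 250 bases before to 50 bases after a gene start and is written 5′ to 3′ on the gene's strand. Capitals mark matches to any of 4 motifs on either strand, TGCGCA (the core of NRF1 sites), CCGGAAG (an ETS motif), GATGGCG (a YY1 core) and AAGGTCA (an ERR half-site). The first 3 are motifs of regulators known for genes of mitochondrial proteins, and ERR receptors act on genes of energy metabolism. Mrpl46 lies at chr7:78783040-78783339 on the minus strand, with no match, and Mrps11 at chr7:78782881-78783180 on the plus strand, with a YY1 core, and the 2 windows share 141 bases. Mrps23 lies at chr11:88204138-88204437 on the plus strand, with an NRF1 core and an ETS motif. Slc25a20 lies at chr9:108661886-108662185 on the plus strand, with an ETS motif.
Mrpl46: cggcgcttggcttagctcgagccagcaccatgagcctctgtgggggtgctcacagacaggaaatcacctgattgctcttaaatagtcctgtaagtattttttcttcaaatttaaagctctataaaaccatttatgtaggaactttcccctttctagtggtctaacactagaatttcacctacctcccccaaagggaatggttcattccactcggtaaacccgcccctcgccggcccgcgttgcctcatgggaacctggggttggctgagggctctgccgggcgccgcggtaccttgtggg
Mrps11: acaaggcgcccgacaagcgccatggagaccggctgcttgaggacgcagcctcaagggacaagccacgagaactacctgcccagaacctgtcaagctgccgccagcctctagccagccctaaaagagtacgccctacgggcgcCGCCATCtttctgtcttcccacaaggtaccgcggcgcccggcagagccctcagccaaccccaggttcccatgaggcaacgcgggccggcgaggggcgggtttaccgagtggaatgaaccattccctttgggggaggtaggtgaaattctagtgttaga
Mrps23: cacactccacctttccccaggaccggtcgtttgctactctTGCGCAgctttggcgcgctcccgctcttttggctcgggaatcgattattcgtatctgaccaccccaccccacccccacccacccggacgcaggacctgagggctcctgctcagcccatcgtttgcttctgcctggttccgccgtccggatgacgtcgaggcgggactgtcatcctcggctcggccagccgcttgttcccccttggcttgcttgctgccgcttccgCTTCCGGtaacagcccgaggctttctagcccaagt
Slc25a20: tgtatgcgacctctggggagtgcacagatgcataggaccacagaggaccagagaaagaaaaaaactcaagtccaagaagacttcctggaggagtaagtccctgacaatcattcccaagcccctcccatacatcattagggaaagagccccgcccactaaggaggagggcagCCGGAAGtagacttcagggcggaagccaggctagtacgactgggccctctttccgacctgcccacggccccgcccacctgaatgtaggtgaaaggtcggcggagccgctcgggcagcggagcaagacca

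Windows were listed for 67 of the 78 genes, 74 windows in all. TGCGCA occurred in 21 of the 74 (28.4%), against 7.76% of all 32851 windows of that length. CCGGAAG also occurred in 21 (28.4%), against 8.86% of all windows. GATGGCG occurred in 7 (9.46%), against 3.49%, and AAGGTCA in 5 (6.76%), against 4.72%. By role, TGCGCA was in 15 of 44 ribosomal, 4 of 18 import and 2 of 12 carrier windows, and CCGGAAG in 11 of 44, 7 of 18 and 3 of 12. The member windows had a median G+C content of 58.2%, against 52.7% for all windows, and its part in the motif counts was not tested. No motif contains another, windows of 1 gene can overlap, and a match is a run of letters, not a shown binding site.

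Individual ribosomal genes departed from the family on single arrays. Mrps23 was at 0.20, -0.26, -0.43 and 0.07 on Kidney and the arrays labelled Liver, Lung and Heart, 0.50 on VA_MEF, 0.03 on 3T3, 0.23 on VA_475, -0.12 on NRAS_MEL, -0.38 on HRAS_MEL, 1.95 on the array labelled Melan A and -0.23 on D6_MEL. Mrpl42 reached 2.20 on the array labelled Melan A and lay between -0.12 and 0.68 on the other 10. Both genes were thus set apart by 1 array. Mrpl58, an enzyme of the large subunit that frees stalled peptides, was at -2.19 on HRAS_MEL and between -0.29 and 0.42 on the other 10. Mrpl13 was high in a different set, with 1.78 on the array labelled Heart, 1.69 on VA_MEF, 1.49 on NRAS_MEL, 1.59 on D6_MEL, 0.88 on HRAS_MEL and 0.89 on VA_475. It had 0.36 on Kidney, 0.01 and 0.63 on the arrays labelled Liver and Lung, 0.68 on 3T3 and 0.61 on the array labelled Melan A. No other array passed 0.89 for Mrpl13 than the array labelled Heart, VA_MEF, NRAS_MEL and D6_MEL. Mrpl32 ran against the family (correlation with its median -0.484), at 0.36 on VA_MEF, 0.74 on 3T3 and -1.30 on the array labelled Melan A. The narrowest member by range was Mrpl50, from -0.26 to 0.31, but its 2 probes ran against each other (correlation -0.820 over 11 arrays), at 0.89 and -0.27 on Kidney, so the mean hides both.

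Import genes varied less than carriers and did not move as a block. The Timm median was highest on NRAS_MEL, at 0.43, and lowest on the array labelled Liver, at -0.23, while the Tomm median ran from -0.37 on the array labelled Lung to 0.55 on the array labelled Melan A. Of the 11 Timm genes, 5 were highest on NRAS_MEL, which was highest for 6.10% of all genes, and 5 on the array labelled Melan A. The channel gene Tomm40 was at 0.18, 0.05, -0.15 and 0.05 on Kidney and the arrays labelled Liver, Lung and Heart, 0.45 on VA_MEF, 0.75 on 3T3, 0.75 on VA_475, 0.89 on NRAS_MEL, 0.39 on HRAS_MEL, 0.55 on the array labelled Melan A and 0.65 on D6_MEL. By label, the 4 organ values of Tomm40 lay below all 7 others, and the share of all genes that did so was not counted. By markers this does not hold, since the array labelled Melan A, with heart markers, had 0.55 and the array labelled Heart, without them, 0.05. Tomm20, a receptor for presequence proteins, was highest on VA_MEF (1.07), with 0.63 on 3T3 and 0.72 on VA_475, and lowest on the array labelled Lung (-0.88). The receptor Tomm22 stayed between -0.56 on Kidney and 0.49 on NRAS_MEL. Tomm70a, a receptor for carrier proteins, averaged 0.61 on Kidney, 0.72 on the array labelled Lung, 1.18 on the array labelled Melan A and from -0.88 to -0.30 on the others. Its 2 probes stood at 2.31 and 0.05 on the array labelled Melan A and at 1.47 and -0.25 on Kidney, so those high values are carried by 1 probe.

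The small outer-membrane subunit Tomm7 had the sharpest single-array value of the import genes. It stood at 0.53 on Kidney, 1.04, 0.68 and 0.27 on the arrays labelled Liver, Lung and Heart, 0.52 on VA_MEF, 0.43 on 3T3, 1.18 on VA_475, 1.11 on NRAS_MEL, 0.99 on HRAS_MEL, 0.90 on the array labelled Melan A and -2.0 on D6_MEL. Only D6_MEL lay below 0, and 1 probe carried the gene. At the inner membrane, Timm17a of the presequence translocase had 1.92 on the array labelled Melan A, 1.02 on Kidney, 0.92 on 3T3, 0.83 on VA_MEF and -0.30 to 0.49 elsewhere. Its paralogue Timm17b had no value above 0.48. Timm44, which tethers the import motor, had 0.85 on the array labelled Melan A and -1.0 to -0.14 on the others, and the receptor Timm50 stayed between -0.53 and 0.31. In the carrier translocase, Timm22 was highest on NRAS_MEL (1.15) and D6_MEL (0.70), and Timm29, a subunit in human cells, was below 0 on every array, from -2.37 on VA_MEF to -0.08 on the array labelled Liver. The small chaperones differed among themselves, with Timm8a1 at 0.89 on NRAS_MEL and -0.90 on HRAS_MEL, Timm8b at 0.30 to 1.12 on 10 arrays and -0.07 on D6_MEL, and Timm13 at -0.25 to 0.58. Of the import genes looked for by name, Timm23, Timm9 and Timm10 were not analysed here.

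The carriers were the family that differed most between arrays. The median SD over the 11 arrays was 0.82 for the 15 Slc25a genes, a value above that of 81.1% of all genes, against 0.47 for Mrpl, 0.46 for Mrps, 0.41 for Timm, 0.54 for Tomm and 0.48 for all genes. Their median was highest on Kidney, at 0.82, then 0.43 on the array labelled Lung, and lowest on NRAS_MEL, at -0.44. Kidney was the highest array for 5 of the 15 and for 8.94% of all genes. These were Slc25a5, Slc25a10, Slc25a17, Slc25a36 and Slc25a48.

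**Figure D3:**
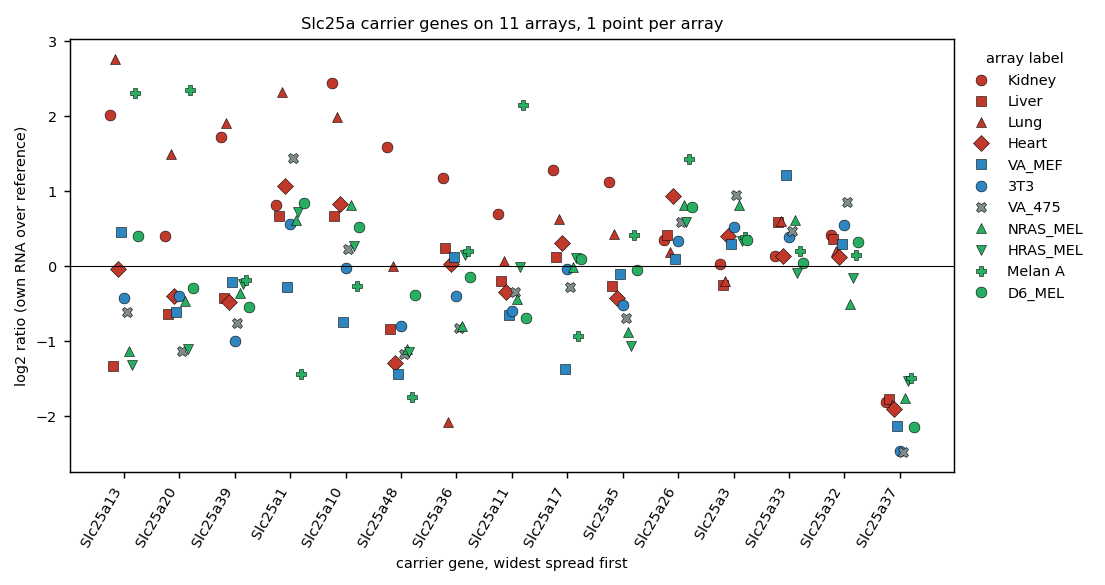
Log2 ratio of own RNA over reference (y axis) of the 15 Slc25a genes (x axis, widest spread first), 1 point per array, with organs in red, fibroblast lines in blue, VA_475 in grey and melanocyte lines in green. Slc25a13 ranges from -1.33 to 2.76, while Slc25a37 lies at or below -1.49 on all 11 arrays.

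Among carriers of fuel metabolites, Slc25a13 and Slc25a20 shared their 3 highest arrays, Kidney and the arrays labelled Lung and Melan A. Slc25a13, an aspartate-glutamate carrier, was at 2.01 on Kidney, -1.33 on the array labelled Liver, 2.76 on the array labelled Lung, -0.03 on the array labelled Heart, 0.46 on VA_MEF, -0.43 on 3T3, -0.60 on VA_475, -1.13 on NRAS_MEL, -1.31 on HRAS_MEL, 2.30 on the array labelled Melan A and 0.40 on D6_MEL. The 3 high arrays lay apart from the other 8, whose top was 0.46. Slc25a20, which brings acylcarnitines into the matrix, was at 0.41 on Kidney, -0.63 on the array labelled Liver, 1.49 on the array labelled Lung, -0.40 on the array labelled Heart, -0.62 on VA_MEF, -0.39 on 3T3, -1.13 on VA_475, -0.46 on NRAS_MEL, -1.10 on HRAS_MEL, 2.34 on the array labelled Melan A and -0.29 on D6_MEL. The same 3 arrays were the only ones above 0. Slc25a11, the oxoglutarate-malate carrier, was at 2.15 on the array labelled Melan A, 0.69 on Kidney, 0.07 on the array labelled Lung and below 0 on the other 8.

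The citrate, dicarboxylate and glutathione carriers are given next. Slc25a1, the citrate carrier that supplies lipid synthesis, was at 0.82 on Kidney, 0.67 on the array labelled Liver, 2.33 on the array labelled Lung, 1.07 on the array labelled Heart, -0.27 on VA_MEF, 0.57 on 3T3, 1.44 on VA_475, 0.61 on NRAS_MEL, 0.72 on HRAS_MEL, -1.44 on the array labelled Melan A and 0.84 on D6_MEL. It was thus highest on the array with liver markers and lowest on the one with heart markers. Slc25a10, the dicarboxylate carrier, was at 2.45 on Kidney, 0.67, 1.99 and 0.83 on the arrays labelled Liver, Lung and Heart, -0.75 on VA_MEF, -0.03 on 3T3, 0.22 on VA_475, 0.82 on NRAS_MEL, 0.27 on HRAS_MEL, -0.27 on the array labelled Melan A and 0.52 on D6_MEL. Slc25a39, known for glutathione import, was at 1.73 on Kidney, -0.42, 1.90 and -0.48 on the arrays labelled Liver, Lung and Heart, and from -0.99 to -0.19 on the 7 others. Both genes were highest on Kidney and the array labelled Lung. Slc25a48 was at 1.59 on Kidney, -0.84, 0.01 and -1.29 on the arrays labelled Liver, Lung and Heart, -1.43 on VA_MEF, -0.80 on 3T3, -1.17 on VA_475, -1.11 on NRAS_MEL, -1.14 on HRAS_MEL, -1.74 on the array labelled Melan A and -0.38 on D6_MEL, so Kidney stood alone. Slc25a36, a pyrimidine nucleotide carrier, had 1.17 on Kidney and -2.07 on the array labelled Lung, with -0.82 to 0.24 on the others, while the related carrier Slc25a33 was highest on VA_MEF, at 1.21.

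The carriers of ATP synthesis gave no clear order. Slc25a5, an ADP/ATP carrier, averaged 1.13 on Kidney, 0.43 on the array labelled Lung, 0.42 on the array labelled Melan A and -1.06 to -0.05 on the others. Its 2 probes read 2.52 and -0.26 on Kidney and correlated at 0.182 over the 11 arrays. Cross-hybridisation with the near-identical carrier genes was not tested, and Slc25a4 and Slc25a31 were not analysed here. The 10 genes most like the mean of Slc25a5 over the 11 arrays were Lasp1 (correlation 0.949), Me1, Casp9, Cyb5d1, Sorcs3, Dcun1d1, Znrf2, Usp24, Brd8 and Lypla1 (0.901). Slc25a3, the phosphate carrier, averaged -0.25 to 0.96, and its 2 probes correlated at 0.0243. The other 8 of the 12 members with several probes had probe correlations of at least 0.886. Slc25a37, the iron carrier mitoferrin of red cell precursors, was between -2.48 on VA_475 and -1.49 on the array labelled Melan A, below the embryo reference on all 11. Slc25a12, Slc25a15, Slc25a28 and Slc25a38 were not analysed here.

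The comparison of melanocyte lines with and without RAS in their label rests on 1 array a side, so values are given with no test. Between NRAS_MEL and D6_MEL, whose codes share C3, the members' log2 differences had a median of 0.25, and 61 of 77 were above 0, against a median of 0.02 and 3649 of 7069 over all genes. Past 2-fold, 1 member was higher, where 2.46% of all genes were, and 1 was lower, where 4.40% were. If the deposited logarithms were natural, these counts would be 7 and 5. The higher one was Tomm7, with 1.11 on NRAS_MEL and -2.0 on D6_MEL (difference 3.11), and the lower one Slc25a13, with -1.13 on NRAS_MEL and 0.40 on D6_MEL (difference -1.53). The family medians were 0.27 for Mrpl, 0.30 for Mrps, 0.43 for Timm and 0.35 for Tomm, and -0.12 for Slc25a. All 11 measured Mrps genes were above 0, by 0.02 to 0.71, and 66 of 73 cytosolic ribosomal protein genes were too, with a median of 0.49. The median SD between probes of a gene for this difference was 0.324, so a difference of that size in 1 gene is within the error of its probes.

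HRAS_MEL set against D6_MEL gave a median of -0.18, with 26 of 77 members above 0, and a median of -0.01 over all genes. The Mrpl median was -0.18, while that of oxidative phosphorylation was 0.27. Past 2-fold, 2 members were higher, where 5.23% of all genes were, and 4 lower, where 5.91% were, which natural logarithms would make 11 lower. The higher ones were Tomm7, with 0.99 on HRAS_MEL and -2.0 on D6_MEL, and Mrpl32, with 0.23 and -0.82. The lower ones were Mrpl58 (difference -1.89), Slc25a13 (-1.72), Timm8a1 (-1.35) and Slc25a5 (-1.01). This comparison and the one before it share the D6_MEL array, on which the value of Tomm7 rests in both. Slc25a13 was lower than on D6_MEL, where it had 0.40, on both RAS-labelled arrays.

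The arrays of the 2 isoforms, NRAS_MEL over HRAS_MEL, had a median member difference of 0.37, with 62 of 77 above 0, against 0.02 over all genes. Past 2-fold, 5 members were higher, where 4.27% of all genes were, and 0 were lower, where 5.08% were, and natural logarithms would give 13 and 3. The 5 were Mrpl58 (-0.06 on NRAS_MEL and -2.19 on HRAS_MEL), Timm8a1 (0.89 and -0.90), Tomm5 (0.70 and -0.66), Timm22 (1.15 and -0.09) and Mrpl20 (0.39 and -0.61). The 7 Tomm genes were all above 0, by 0.01 to 1.36, as were 3645 of 7073 genes. Tomm70a, Tomm20, Tomm34 and Tomm7, at 0.01, 0.05, 0.06 and 0.12, lay under the median SD between probes of a gene, 0.275. Tomm22, Tomm40 and Tomm5 lay above it. The Mrpl median was 0.42, the Mrps median 0.37, the Timm median 0.57 and the Slc25a median 0.03, and that of oxidative phosphorylation was 0.25.

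**Figure D4:**
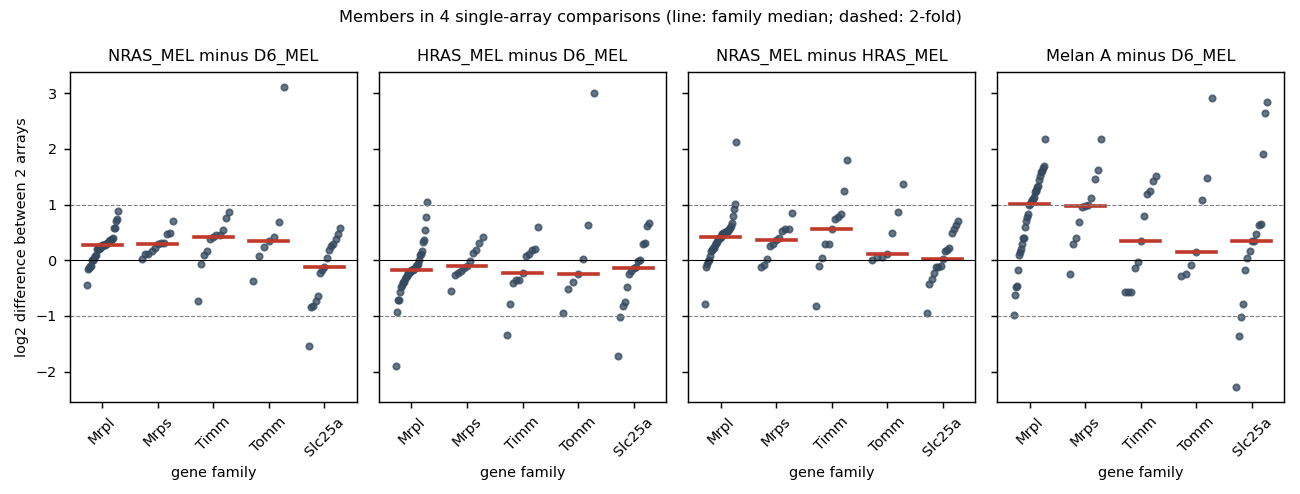
Log2 difference between 2 arrays (y axis) of each member (point) by family (x axis), in 4 comparisons of 1 array a side; the red line is the family median and the dashed lines mark 2-fold. Most points lie within 2-fold for NRAS_MEL minus D6_MEL, where Tomm7 stands at 3.11, and the Mrpl and Mrps medians are near 1 for the array labelled Melan A minus D6_MEL.

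The array labelled Melan A differed most from D6_MEL. Past 2-fold, 32 of 77 members were higher, where 14.6% of all genes were, and 3 were lower, where 12.8% were. Quantile normalization gave 21 higher, and natural logarithms would give 5 lower. The median difference was 0.71 over the members, against -0.02 over all genes, and 1.02 for Mrpl, 0.97 for Mrps, 0.35 for Timm, 0.15 for Tomm and 0.35 for Slc25a. Of the 62 oxidative phosphorylation genes 55 passed 2-fold higher, with a median of 2.69. The largest differences above 0 were those of Tomm7 (2.90), Slc25a11 (2.83), Slc25a20 (2.64), Mrps23 (2.18), Mrpl42 (2.18) and Slc25a13 (1.90). That of Tomm7 rests on D6_MEL, where it had -2.0 on 1 probe, against 0.90 on the array labelled Melan A. The 3 lower members were Slc25a1 (-1.44 on the array labelled Melan A and 0.84 on D6_MEL), Slc25a48 (-1.74 and -0.38) and Slc25a17 (-0.92 and 0.10). Heart marker genes moved with this comparison, at 3.77 on the array labelled Melan A and -0.78 on D6_MEL, and its label's own melanocyte genes lay at -1.20 and -0.41.

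VA_MEF and 3T3, both labelled as fibroblasts, differed in scattered members only. Past 2-fold, 3 members were higher on VA_MEF, where 5.87% of all genes were, and 3 were lower, where 7.89% were, and the median was 0.01. Natural logarithms would give 9 and 5. The higher ones were Mrpl44 (1.02 on VA_MEF and -0.33 on 3T3), Mrps9 (1.03 and -0.03) and Mrpl13 (1.69 and 0.68). The lower ones were Timm29 (-2.37 on VA_MEF and -0.67 on 3T3), the peroxisomal carrier Slc25a17 (-1.37 and -0.04) and Mrpl18 (-1.32 and -0.28). The melanocyte list had medians of 0.39 on VA_MEF and -0.82 on 3T3, and its part was not tested.

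Between organs, Kidney was above the array labelled Liver in most members. Past 2-fold, 12 of 77 were higher on Kidney, where 9.45% of all genes were, and 0 were lower, where 10% were, and natural logarithms would give 24 and 1. The median was 0.45, against -0.04 over all genes, with 0.94 for Slc25a and 0.44 for Mrpl. The carriers made up 7 of the 12, among them Slc25a13 (2.01 on Kidney and -1.33 on the array labelled Liver), Slc25a48 (1.59 and -0.84), Slc25a39 (1.73 and -0.42) and Slc25a10 (2.45 and 0.67). Tomm70a (difference 1.49) and Mrpl12 (1.48), which binds the mitochondrial RNA polymerase in human cells, were next. The 2 probes of Tomm70a stood at 1.47 and -0.25 on Kidney and at -0.72 and -1.04 on the array labelled Liver. The macrophage genes Lyz2 and Laptm5 had medians of -1.14 on Kidney and 4.04 on the array labelled Liver. Kidney and the array labelled Lung, with its liver markers, were closer in median (-0.02), with 4 members higher, where 7.91% of all genes were, and 6 lower, where 6.64% were. Quantile normalization gave 2 and 1. Slc25a36 (1.17 on Kidney and -2.07 on the array labelled Lung), Slc25a48 (1.59 and 0.01), Timm17a (1.02 and -0.13) and Tomm20 (0.21 and -0.88) were the higher ones. The lower ones were Slc25a1 (0.82 on Kidney and 2.33 on the array labelled Lung), Mrpl15 (-0.52 and 0.70), Mrps18b (0.00 and 1.11), Slc25a20 (0.41 and 1.49), Mrps10 (-0.21 and 0.82) and Timm8a1 (-0.18 and 0.82).

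With classes as labelled, no member differed past the threshold between organs and melanocyte lines. The fit by limma (Benjamini-Hochberg adjusted p, threshold 0.05) used 4 organ, 2 fibroblast and 4 melanocyte arrays and 7064 genes. Lines and organs stood in for replicates, so a p measures the spread between them. It called 0 of 77 members in either direction (0% of all genes), 1 higher and 1 lower had an unadjusted p under 0.05, and the smallest adjusted p of a member was 0.930. The lower one was Tomm40, which averaged 0.03 ± 0.14 on organ arrays and 0.62 ± 0.21 on melanocyte arrays (SD, n = 4 each), a difference of -0.59 ± 0.19 (SE). Its groups did not overlap by label, and the share of all genes without overlap was not counted. The higher one was Slc25a10, which averaged 1.48 ± 0.87 on organ arrays and 0.34 ± 0.46 on melanocyte arrays (SD, n = 4 each), a difference of 1.15 ± 0.43 (SE), with groups that overlapped. Next by p in the higher direction came Slc25a17 (0.77), Slc25a1 (1.04), Slc25a39 (1.01) and Slc25a48 (0.96). In the lower direction came Slc25a3 (-0.48), the S-adenosylmethionine carrier Slc25a26 (-0.44), Mrpl30 (-0.55) and Mrpl3 (-0.43). The median difference was -0.05 over the members, against 0.01 over all genes, and 0.32 over the Slc25a genes. Of the other mitochondrial genes, 0 of 62 for oxidative phosphorylation and 0 of 15 for the TCA cycle were called.

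Fibroblast and melanocyte arrays likewise gave 0 of 77 calls in either direction (0% of all genes), with 2 higher and 2 lower at an unadjusted p under 0.05 and a smallest adjusted p of 0.961 by limma. Mrpl32 averaged 0.55 ± 0.27 on fibroblast arrays (SD, n = 2) and -0.61 ± 0.64 on melanocyte arrays (SD, n = 4). The groups did not overlap, and the share of all genes without overlap was not counted. Their nearest values were 0.36 on VA_MEF and 0.23 on HRAS_MEL, and the array labelled Melan A, with heart markers, had -1.30. The difference for Mrpl32 was 1.16 ± 0.38 (SE). Tomm20 followed at 0.80 and Slc25a37 at -0.57 was first among the lower ones, with Slc25a26 at -0.69. Also by p came Slc25a33 (0.61), Mrpl35 (0.63) and Mrps10 (0.66) on the higher side, and Tomm5 (-0.70), Mrpl42 (-0.79) and Mrpl18 (-0.81) on the lower side. The median difference was -0.04 over the members and -0.04 over all genes.

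The count of genes called depended on which arrays were kept. Without the arrays labelled Heart and Melan A, 79 of 7044 genes were called higher (1.12%) and 73 lower (1.04%), and 0 of 77 members in either direction, 4 higher and 3 lower at an unadjusted p under 0.05, with a smallest adjusted p of 0.149. The member median was then 0.10, with 53 of 77 above 0, and that of the 62 oxidative phosphorylation genes 0.89, 1 of them called higher. With VA_MEF and the arrays labelled Liver and Lung left out as well, Kidney alone stood against NRAS_MEL, HRAS_MEL and D6_MEL, and 3T3 alone stood for the fibroblasts. All residual spread then came from the 3 melanocyte arrays, and Kidney was assumed to vary like them, so the p-values below hold no variation between kidneys or organs. There 352 of 7053 genes were called higher (4.99%) and 122 lower (1.73%). Of the members 3 were called higher and 0 lower on this single Kidney array, all 3 of them carriers. By limma, Slc25a39 differed by 2.10 ± 0.32 (SE, adjusted p = 0.0207), with 1.73 on Kidney and -0.35, -0.23 and -0.54 on NRAS_MEL, HRAS_MEL and D6_MEL. Slc25a48 differed by 2.47 ± 0.42 (SE, adjusted p = 0.0277 by limma) and Slc25a10 by 1.91 ± 0.35 (SE, adjusted p = 0.0350 by limma). The largest difference among members, 2.69 ± 0.70 (SE) for Slc25a13, was not called (adjusted p = 0.0836 by limma). A share of 3 in 77 members lay near the background, and 12 of 62 oxidative phosphorylation and 4 of 15 TCA cycle genes were called higher in the same fit.

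**Figure D5:**
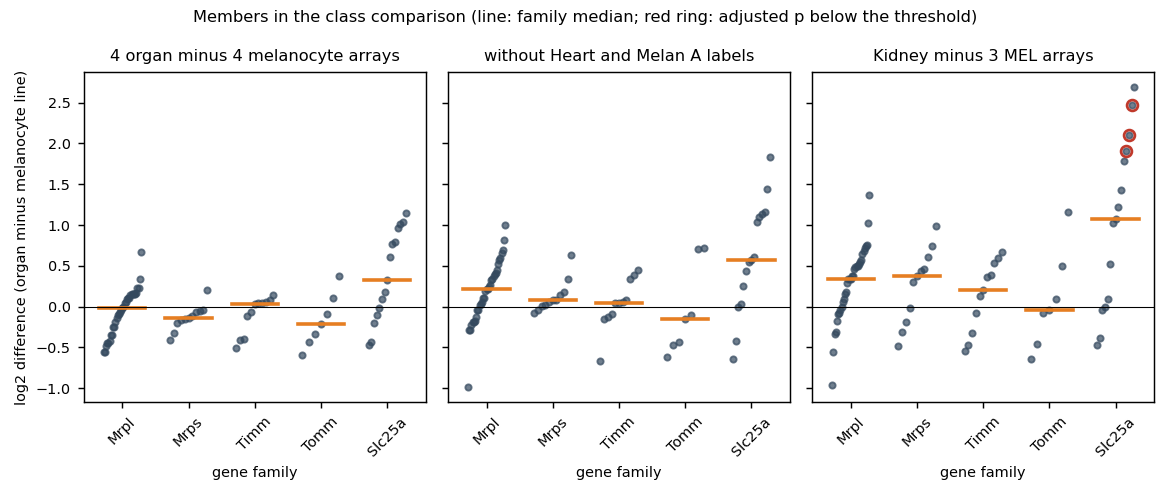
Log2 difference of organ minus melanocyte arrays (y axis) of each member (point) by family (x axis), with the orange line at the family median and red rings where the limma adjusted p was under 0.05. With 4 arrays a side and without the arrays labelled Heart and Melan A there are no rings, and with Kidney against NRAS_MEL, HRAS_MEL and D6_MEL there are 3, all in Slc25a.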

How the data were processed

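Two-channel cDNA arrays were used, with own RNA (Trizol extraction) labelled with Cy3 and the embryo reference with Cy5, and the dyes not swapped, per the labels. The authors deposited log ratios of 15247 probes, taken here as log2, with 15170 to 15210 values per array. The sources used here do not give the base, direction, background correction, normalization or genome build. Signal intensities were not analysed, and precision is limited by how many arrays there are.

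The sign was turned, each array centred on its median, and probes averaged per gene. The platform annotation gave 1 symbol to 9600 probes, several to 214 and none to 5433. Several symbols including a member were on 4 probes, not used here. Of the 9600, 9492 matched a RefSeq table by gene number.

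The fit of the classes was made by lmFit and eBayes of limma 3.58.1 under R 4.3.3, for genes with at least 3 organ, 3 melanocyte and 2 fibroblast values. The same fit was also run on simulated data, and that result is not given here. Single arrays were compared by difference.

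Members and lists were chosen with earlier results of these data known. Lists leave out pseudogenes, and the cytosolic list leaves out ribosomal S6 kinases. Members named were the 4 widest and 2 narrowest by SD in a family, members past a threshold (or the 5 smallest p in each direction), members past 2-fold (up to 6 in each direction) and a list of carriers and import genes, 54 in all. Other members named for range or direction were chosen after their values were seen, among them Mrpl46 and Mrps11.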

Additional observations from a re-analysis of the deposited data

Results flagged for a closer look

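Within the groups of 4 arrays, 118 sets of 4 values were screened, those of the 54 named members and of the 5 family medians. In 8 of the 118, 1 array stood apart. Its gap to the nearest other array, as a share of the range, passed Dixon's critical value for 4 values. For values not chosen by their spread, chance gives such a gap in about 1 in 20 groups. Many of these genes were named for a large SD or a 2-fold difference on these same arrays, so that rate does not apply. A gene named because 1 array stood apart is likely to be flagged on that array. On the array labelled Melan A, which has heart markers, 5 of the 8 fell. These were Mrps23 (1.95, with the other melanocyte arrays from -0.38 to -0.12), Mrps35 (1.03, others -0.43 to -0.40), Timm44 (0.85, others -0.67 to -0.46), Slc25a1 (-1.44, others 0.61 to 0.84) and Slc25a17 (-0.92, others -0.01 to 0.11). D6_MEL stood apart for Tomm7, at -2.0, with the others from 0.90 to 1.11. NRAS_MEL stood apart for Slc25a3, at 0.82, with the others from 0.33 to 0.39, and the 2 probes of that gene differed by 1.34 on NRAS_MEL. Among organ arrays, Kidney stood apart for Mrpl20, at 0.52, with the others from 0.25 to 0.29.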

How the results depend on the processing

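Family medians by array kept their values within the spread of the arrays without centring, with quantile normalization and with 1 probe per gene. Of the counts and medians under the alternatives, 394 stayed close to the value given, and 25 moved. Organ calls over all genes ran from 0 to 7 higher when 1 array was left out, 7 without the array labelled Heart, and came to 79 higher and 73 lower without the arrays labelled Heart and Melan A, and to 352 and 122 without the 5 doubted arrays, where 3 members were called higher and the member median was 0.36. Fibroblast calls over all genes ran from 0 to 2 higher and from 0 to 2 lower when 1 array was left out (2 and 2 without 3T3, 1 and 0 without VA_MEF), with member medians from -0.15 to 0.11. The organ member median then ran from -0.14 to 0.10. Without the 5 doubted arrays the fibroblast difference of Mrpl18 turned to 0.15; fewer arrays entered those fits and the cause was not tested. Natural logarithms, which stretch every difference alike, would give 7 higher and 5 lower members for NRAS_MEL over D6_MEL, 11 lower for HRAS_MEL over D6_MEL, 13 higher and 3 lower for NRAS_MEL over HRAS_MEL, and 5 lower for Melan A over D6_MEL. They would give 9 higher and 5 lower for VA_MEF over 3T3, and 24 higher and 1 lower for Kidney over the array labelled Liver. With quantile normalization, 2 members were higher for NRAS_MEL over D6_MEL, 21 for Melan A over D6_MEL, and 2 higher and 1 lower for Kidney over the array labelled Lung, and 1 probe per gene gave 2 lower for NRAS_MEL over D6_MEL. The cause was not tested. Among single members, 454 values stayed, 58 moved, 3 passed the threshold and 1 turned. In the class fits a member counted as stayed if its sign and its side of the threshold were kept, whatever the size. No paired analysis was possible because replicate numbers only follow the order of the samples and pair nothing. Depth and signal over background are unknown here.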
